A study of Mus musculus with 6 samples.

Results

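The genes described here encode the transcription factor NRF2 (Nfe2l2) and the proteins that hold, pair with or compete with it. There were 10 of them: Nfe2l2, the related factors Nfe2l1 and Nfe2l3, the repressors Bach1 and Bach2, the small MAF genes Maff, Mafg and Mafk, and Keap1 and Cul3. They were chosen by name, with earlier results of these data known, from 21283 genes that the array names through RefSeq. A probe was taken for a gene if it carried the symbol or a RefSeq transcript of the gene, which gave 23 of the 150305 probes. All 23 passed the filter on dim probes, 21 of them well above background on every array and 2 Nfe2l2 probes only through wild type. A second readout came from 15 circular RNAs (circRNAs, closed loops made by back-splicing) whose positions lie inside exactly 1 coding gene, that gene being a member.

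Prefrontal cortex came from male mice of the outbred ICR stock at 3 to 4 months of age, with 3 wild type and 3 Nrf2 knockout samples on 1 array each. The genotype labels read wild type and Nrf2 gene knockout. Which part of the gene is deleted is not stated there, nor whether the knockout was made on this stock. Separate animals are not stated either, so p-values reflect only the spread among these 6 samples, and that spread may be technical. Each value is a log2 processed signal from which the array's own 75th percentile was taken away, so 0 is the level of a probe at that percentile. A probe's level cannot be set against that of another probe.

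NRF2 is kept low in unstressed cells by KEAP1, a sensor protein with reactive cysteines that joins NRF2 to the CUL3 ubiquitin ligase, so that NRF2 is degraded by the proteasome. When KEAP1 is modified by electrophiles or oxidants, NRF2 accumulates, pairs with a small MAF protein and binds antioxidant response elements (AREs) in front of detoxification and antioxidant genes. NFE2L1 and NFE2L3 are CNC-bZIP factors that use the same MAF partners, and BACH1 and BACH2 are CNC-bZIP repressors that compete for the same sites. In brain, NRF2 activity is known above all from astrocytes.

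By the scanner software's own call, each array had 71.0 to 73.4% of its probes well above background. The slide of an array was inferred: arrays with the same scan date in the file headers are called 1 slide here. By that rule the 3 wild type arrays and knockout 1 were on slide 1, and knockouts 2 and 3 on slide 2. The median local backgrounds of the slide 2 arrays were 19 and 18 against 23 to 24. Markers of inhibitory neurons (Gad1, Gad2 and Slc32a1) were tested at 3 of 3 genes, with summed linear signals from 173.7 up to 189.5 in wild type and from 184.9 up to 208.4 in knockout arrays, in units of the array's 75th percentile. The sums did not overlap over 5 meningeal markers (24.4 to 34.9 for wild type, 19.9 to 22.4 for knockout), 6 striatal markers (32.6 to 34.3 and 31.8 to 32.4) and 3 red cell markers (352 to 454 and 462 to 497). By gene, 0 of 5 meningeal, 3 of 6 striatal and 3 of 3 red cell markers were higher in the knockout, so the striatal genes were split. Groups did not overlap at 21.6% of all tested single probes either. No marker of the 10 lists passed the test, and the part of these marker differences in the results below was not tested.

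Nfe2l2 lost nearly all signal at 3 of its 4 probes in every knockout sample, while the groups overlapped at the fourth. The probes are called A to D. A, B and C are for the coding transcript, and D is for a non-coding transcript variant. B and C lie on the minus strand of chromosome 2 at chr2:75513771-75513830 and chr2:75513917-75513976 on build mm9, per the file headers, and the files give no position for A and D. The gene itself spans chr2:75675513-75704663 in the RefSeq table of GRCm38.p6, and positions of the builds are not comparable. The 60-base probes do not overlap: the longest run that any pair of the 4 shares is 7 bases. Their first 30 bases are shown because the knockout call rests on which stretch of the transcript each probe reads.
Nfe2l2 probe A: gtcatagacttatatgacatctggctaaaa
Nfe2l2 probe B: ctcaagttaatttcttaggcaccatttggg
Nfe2l2 probe C: gtactgctaaaacttcctactgtgatgtga
Nfe2l2 probe D: gcagcattgtgcgctgtcttgtgggtaaga

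Probe A measured 0.49, 0.39 and 0.35 in wild types 1 to 3 and −3.74, −3.79 and −3.46 in knockouts 1 to 3. The groups lay far apart, and the knockout signal, although low, was well above background on all 3 arrays. On the linear scale it ran from 356 to 393 units in wild type and from 17.9 to 22.2 in knockout arrays. The log2 change was −4.08 (SE 0.12, 95% interval −4.36 to −3.80, limma adjusted p = 6.14e-04), which is 16.9-fold lower. In bulk tissue, fewer cells of a type and less RNA per cell cannot be told apart.

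Probe B measured 1.22, 1.26 and 1.21 in wild type, against −5.65, −7.22 and −7.26 in the knockout. None of the 3 knockout values was well above background, and 2 of them are surrogates that the scanner software set in place of a low signal. The fold is therefore a bound. It sets the wild type mean against a floor for the knockout, which on each array is the probe's own value or, if that is higher, the dimmest value that any probe well above background had there. Against that floor the knockout level at probe B was at least 81.5-fold lower (limma adjusted p = 0.00908). Probes not well above background can lie above the floor, as the gene Dsg1c did in knockout 3 (−4.98 against −5.05). The bound therefore holds for this floor only. The p-value uses the 2 surrogates, so it does not measure the spread among knockout samples. Its call was lost when either wild type 2 or 3 was left out (limma adjusted p = 0.12 and 0.108) and when either knockout 2 or 3 was (0.07 and 0.0697).

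Probe C measured 0.93, 1.01 and 0.83 in wild type, against −7.39, −7.24 and −7.20 in the knockout, where all 3 values were surrogates. Against the same kind of floor it was at least 65.6-fold lower (limma adjusted p = 4.79e-06). It passed the test in each of the 6 fits that leave out an array, with adjusted p of at most 3.08e-04. With surrogates for all 3 knockout values, these p-values do not measure the spread among knockout samples.

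Probe D gave another picture: −2.10, −1.37 and −1.69 in wild type, against −1.97, −2.15 and −2.07 in the knockout. The groups overlapped, with the lowest knockout value next to wild type 1, and all 6 signals were well above background. The difference was −0.34 (SE 0.19, 95% interval −0.80 to 0.11, limma adjusted p = 0.393), so a loss as large as at probes A to C lies far outside its interval. A probe outside the deleted part checks nothing about the genotype, and the sources used here do not place the probes relative to it.

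Slide 2 holds only knockouts 2 and 3, so with slide as a block each change rests on knockout 1 against wild type. Such a value equals that on slide 1 alone and does not correct knockouts 2 and 3 for slide. At probe A it was −4.15. Knockout 1 is the only knockout array on slide 1, and it was low at probes A, B and C there.

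**Figure D1:**
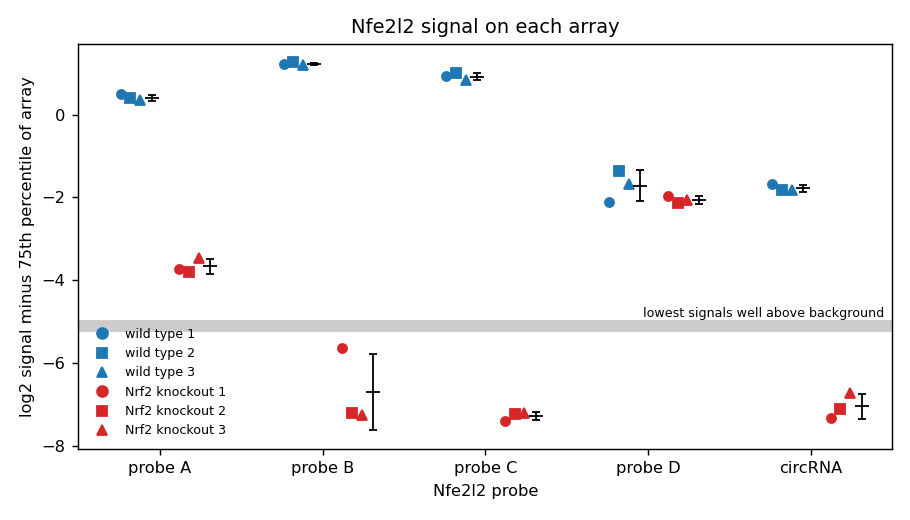
Normalised log2 signal (y axis) of the 4 Nfe2l2 probes and the circRNA inside the gene (x axis) on each of the 6 arrays, with group means and SD in black (n = 3) and the lowest values called well above background as a grey band. Probes B and C and the circRNA lie below the band in every knockout sample, probe A lies at −3.79 to −3.46 there, and the groups overlap at probe D.

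The circRNA of Nfe2l2 (chr2:75675899-75676200, minus strand, 302 bases from end to end) was lost with probes A to C. Its 60-base probe is shown whole because it is the only circRNA probe assigned to the gene.
Nfe2l2 circRNA: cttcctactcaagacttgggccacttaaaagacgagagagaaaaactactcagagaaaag
The circRNA measured −1.68, −1.83 and −1.83 in wild type, against −7.33, −7.10 and −6.73 in the knockout. No knockout value was well above background, and 2 of them were surrogates, so the circRNA entered the test only through wild type. Against the floor used for probe B, the circRNA was at least 10.1-fold lower (limma adjusted p = 7.18e-04). That p-value uses the surrogates, so it does not measure the spread among knockout samples. The longest run it shares with a linear Nfe2l2 probe is 9 bases, with probe C. How much of its signal comes from linear RNA was not tested.

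Of the 23 probes of the 10 genes, 3 passed the limma threshold, all in Nfe2l2 and all lower in the knockout, against 10 (0.00944%) of the 105930 probes tested on the whole array (0.00661% lower and 0.00283% higher). Probes B and C were tested only because wild type was above background, and probe A was the 1 member probe called where all 6 arrays had to be well above background. None of the 19 probes of the other 9 genes passed, and 2 of them had an unadjusted p under 0.05, against 15.1% of all probes. The 19 were well above background on all 6 arrays. Their median log2 change was −0.0029, beside 0.028 over all tested probes, with 9 probes above 0 and 10 below. The groups did not overlap at 2 of the 19, against 21.6% of all probes. Both were lower in the knockout, against 10.4% of all probes. For 14 of the 19 the 95% interval lay within 0.5 on either side of 0 on the log2 scale, and for 16 within 1, so changes of 2-fold lie outside the interval of those 16. The exceptions were both Maff probes and 1 Mafk probe.

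Nfe2l1 encodes a CNC-bZIP factor of the endoplasmic reticulum that drives proteasome genes. Probe A (chr11:96678783-96678842 on mm9, minus strand) measured 5.38, 5.39 and 5.37 in wild type, against 5.32, 5.41 and 5.39 in the knockout. The 6 values lay within 0.088 of each other, and the knockout values straddled those of wild type. The change was −0.0029 (SE 0.080, 95% interval −0.20 to 0.19, limma adjusted p = 0.988). Probe B measured 2.76, 2.94 and 2.67 in wild type, against 2.96, 2.80 and 2.91 in the knockout, a change of 0.097 (interval −0.16 to 0.35). At probe B the groups overlapped as well.

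Nfe2l3, a less studied relative of Nfe2l1, had 3 probes with groups that overlapped at each. Probe A (chr6:51383065-51383124 on mm9, plus strand) measured −0.61, −0.42 and −0.49 in wild type, against −0.52, −0.36 and −0.55 in the knockout. Probe B, near the other end of the gene (chr6:51408131-51408190), measured −3.01, −2.51 and −2.88 in wild type, against −2.76, −3.15 and −3.06 in the knockout. Probe C measured −1.09, −0.72 and −0.96 against −0.99, −1.03 and −1.20. At probes B and C wild type 2 was the highest of the 6 arrays. The changes were 0.031 (SE 0.100), −0.19 (SE 0.17) and −0.15 (SE 0.13), with limma adjusted p of 0.886, 0.563 and 0.542.

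Keap1 encodes the sensor that binds NRF2 in the cytoplasm, and its probes differed in sign. Probe A, whose annotated span of 441 bases (chr9:21035292-21035732 on mm9, minus strand) is longer than the probe, measured 3.61, 3.53 and 3.56 in wild type, against 3.49, 3.76 and 3.81 in the knockout. Probe B measured 3.28, 3.26 and 3.30 in wild type, against 3.28, 3.08 and 3.17 in the knockout. Knockout 1 was just below the wild type arrays at probe A and among them at probe B, while knockouts 2 and 3 were higher than every wild type array at probe A and lower than every one at probe B. The changes were 0.12 (SE 0.11, interval −0.15 to 0.39, limma adjusted p = 0.583) and −0.11 (SE 0.090, interval −0.32 to 0.11, adjusted p = 0.549). Knockouts 2 and 3 are the arrays of slide 2. With slide as a block, which leaves knockout 1 as the only knockout behind the change, the values were −0.078 and −0.0051.

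Cul3, the scaffold of the ligase that KEAP1 recruits, measured 1.69, 1.62 and 1.75 at probe A (chr1:80268109-80268168 on mm9, minus strand) in wild type, against 1.52, 1.71 and 1.83 in the knockout. At probe B it measured 4.62, 4.53 and 4.63 in wild type, against 4.44, 4.76 and 4.82 in the knockout. In both, knockout 1 was the lowest of the 6 arrays and knockout 3 the highest. The changes were 0.0039 (SE 0.11, limma adjusted p = 0.988) and 0.078 (SE 0.12, adjusted p = 0.751). Both were negative (−0.16 at each) with slide as a block, which rests on knockout 1, the lowest array.

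Bach1 encodes a heme-binding repressor of ARE genes. Its probe A (chr16:87730879-87730938 on mm9, plus strand) measured 0.74, 0.99 and 0.82 in wild type, against 0.34, 0.81 and 0.77 in the knockout. Probe B measured 0.74, 0.81 and 0.93 in wild type, against 0.52, 0.80 and 0.71 in the knockout. Knockout 1 was the lowest array at both probes, and knockouts 2 and 3 lay within or beside the wild type range. The changes of −0.21 (SE 0.15) and −0.15 (SE 0.11) did not pass, with limma adjusted p of 0.491 and 0.49.

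Bach2, a repressor known for its role in lymphocytes and also expressed in neurons, measured 1.91, 1.78 and 1.78 at probe A (chr4:32668066-32668125 on mm9, plus strand) in wild type, against 1.88, 2.08 and 1.98 in the knockout. Probe B measured −1.85, −1.78 and −2.16 in wild type, against −1.83, −1.86 and −1.88 in the knockout. The groups overlapped at both. The changes were 0.16 (SE 0.096, interval −0.076 to 0.39) and 0.079 (SE 0.12), with limma adjusted p of 0.434 and 0.741.

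The small MAF genes encode bZIP proteins that have no activation domain of their own and serve as the DNA-binding partner of the CNC factors. Maff showed the largest difference at mRNA probes of the 9 partner genes, lower in the knockout but not past the threshold. Its probe A (chr15:79189442-79189501 on mm9, plus strand) measured −2.31, −1.84 and −1.66 in wild type, against −2.75, −2.61 and −2.44 in the knockout. Probe B measured −2.63, −1.85 and −1.64 in wild type, against −2.73, −3.04 and −2.60 in the knockout. At probe A every knockout value lay below every wild type value, and at probe B wild type 1 lay inside the knockout range. The changes were −0.66 (SE 0.19, interval −1.11 to −0.21) and −0.75 (SE 0.27, interval −1.39 to −0.11), with limma adjusted p of 0.307 and 0.314.

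The Maff probes are not independent readouts. They share a run of 59 of their 60 bases, so their agreement in direction is 1 observation made on 2 spots. The same 30 bases of each are shown to make the shared stretch visible, with the letters of the polyadenylation signal, AATAAA, in capitals.
Maff probe A: gactttctgAATAAAgtcaagttctctttt
Maff probe B: gactttctgAATAAAgtcaagttctctttt
The change at probe A stayed below 0 in every alternative run, between −0.85 and −0.26, with limma adjusted p between 0.127 and 0.899. The smallest size, −0.26, came with normexp background correction. With slide as a block, on knockout 1 as the only knockout, the changes were −0.81 at probe A and −0.69 at probe B. Without wild type 1, the lowest of its group, they were −0.85 and −1.04.

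Mafg again had probes that differed in sign, and neither change passed. Probe A (chr11:120490341-120490400 on mm9, minus strand) measured 3.38, 3.17 and 3.36 in wild type, against 3.33, 3.47 and 3.53 in the knockout. Probe B measured 3.53, 3.53 and 3.54 in wild type, against 3.48, 3.35 and 3.32 in the knockout. The groups did not overlap at probe B, where knockout 1 was the nearest to wild type. The changes were 0.14 (SE 0.10) and −0.15 (SE 0.087), with limma adjusted p of 0.496 and 0.413. With slide as a block, which rests on knockout 1, the change at probe B was −0.051.

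Mafk had a wide spread within each genotype at 1 of its probes. Probe A (chr5:140278320-140278379 on mm9, plus strand) measured −1.08, −1.05 and −0.92 in wild type, against −1.17, −1.06 and −0.80 in the knockout. Probe B measured 1.27, 1.99 and 2.25 in wild type, against 1.19, 1.25 and 2.09 in the knockout. At probe B wild type 1 and knockouts 1 and 2 formed a low set and the other 3 arrays a high set, so the levels did not follow genotype. The changes were 0.0078 (SE 0.12) and −0.33 (SE 0.33, interval −1.13 to 0.47), with limma adjusted p of 0.977 and 0.612.

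**Figure D2:**
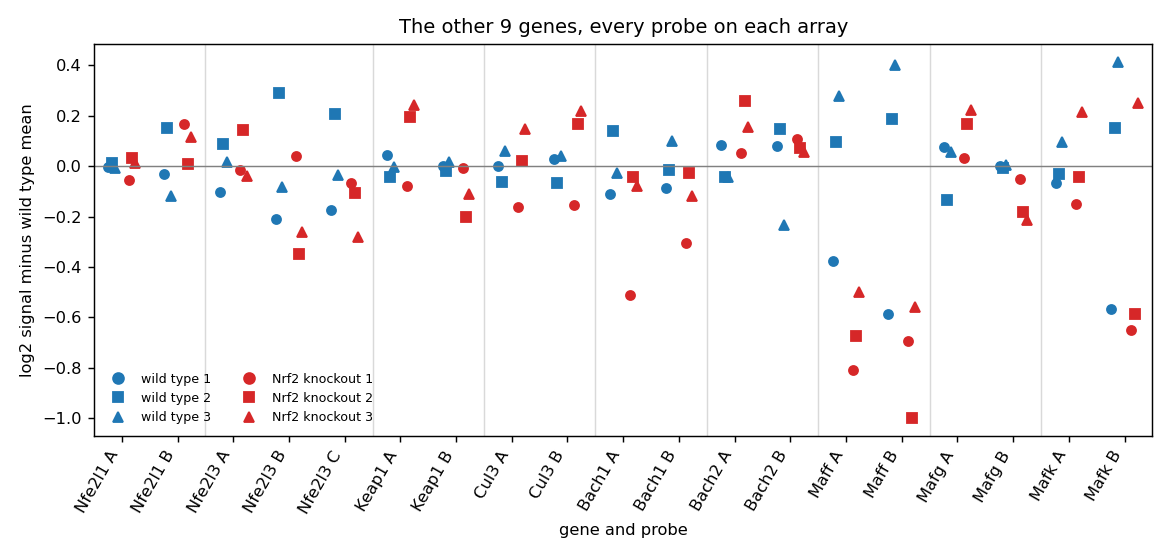
Log2 signal of every mRNA probe of the other 9 genes minus its wild type mean (y axis) on each array, with wild type in blue and Nrf2 knockout in red and grey lines between genes. The widest spread is at the Maff probes and at Mafk probe B, where wild type 1 lies below the other wild type arrays.

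**Figure D3:**
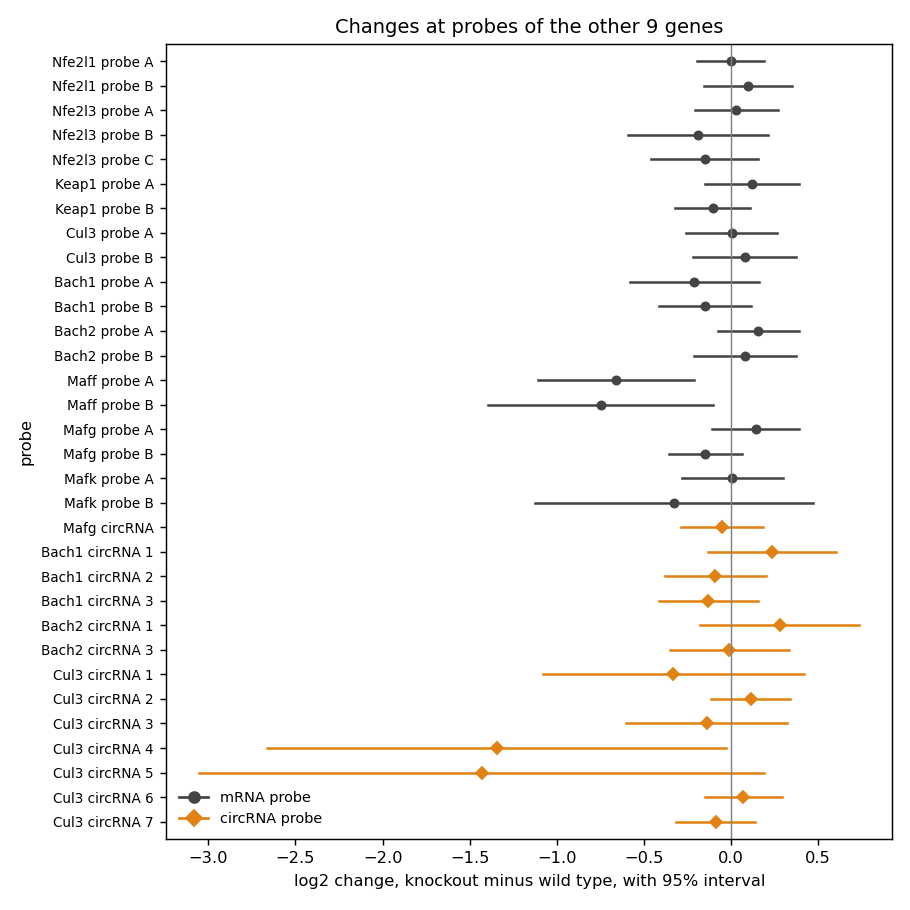
Log2 change between knockout and wild type (x axis) with its 95% interval from limma for each tested probe of the other 9 genes, mRNA probes in grey and circRNA probes in orange. The intervals of both Maff probes and of Cul3 circRNA 4 leave out 0 before adjustment, and no probe shown passes after it.

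The other 14 circRNAs come from Cul3 (7), Bach1 (3), Bach2 (3) and Mafg (1). Keap1, Nfe2l1, Nfe2l3, Maff and Mafk had none under the same rule. Of the 14, 13 were tested and limma called 0, with 1 at an unadjusted p under 0.05. Over all circRNAs of the array, 1 (0.00289%) of 34552 was called, the one inside Nfe2l2, and 14.8% had an unadjusted p under 0.05. The groups overlapped at all 13, against 23.3% of circRNAs without overlap. Differences over the 6 tested circRNAs of Mafg, Bach1 and Bach2 ranged from −0.13 to 0.28, with limma adjusted p of at least 0.449.

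The Mafg circRNA (chr11:120628813-120629307, minus strand) measured 4.08, 3.90 and 4.05 in wild type, against 3.96, 3.87 and 4.05 in the knockout. Its groups overlapped almost wholly, with a change of −0.052 (SE 0.098, interval −0.29 to 0.18, limma adjusted p = 0.794). Bach1 circRNA 1 (chr16:87715331-87720150, plus strand) lay close to the detection limit, between −4.84 and −4.35 on all 6 arrays. The largest of the Bach2 circRNAs from end to end, circRNA 3 (chr4:32317198-32501867, plus strand, 184670 bases), measured −2.52, −2.91 and −2.91 in wild type, against −2.66, −2.93 and −2.78 in the knockout. Bach2 circRNA 2 (chr4:32317198-32417583) was not tested: it was well above background on 0 of 3 wild type and 2 of 3 knockout arrays.

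At Cul3, 2 circRNAs stood apart from the host gene on the slide 2 arrays. CircRNA 4 (chr1:80283676-80290242, minus strand) measured −2.67, −2.68 and −2.58 in wild type, against −2.61, −4.61 and −4.75 in the knockout. CircRNA 5 (chr1:80286899-80290242, minus strand) measured −2.26, −2.15 and −2.31 in wild type, against −2.17, −5.11 and −3.74 in the knockout, with knockout 2 not well above background. Knockout 1 was at the wild type level at both, while knockouts 2 and 3 were lower than every other array. The Cul3 mRNA probes were not lower on those arrays, as given above.

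Both circRNAs end at the same position, 80290242, and their probes share a run of 27 bases. The probes are shown whole with the shared run in capitals, since the pair is not 2 independent readouts.
Cul3 circRNA 4: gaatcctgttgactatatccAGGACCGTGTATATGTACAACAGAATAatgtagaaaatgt
Cul3 circRNA 5: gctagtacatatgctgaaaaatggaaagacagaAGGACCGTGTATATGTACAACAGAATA
Over the 6 arrays the changes were −1.35 (SE 0.55, limma adjusted p = 0.329) and −1.43 (SE 0.67, adjusted p = 0.354). With slide as a block, which leaves knockout 1 as the only knockout behind the change, they were 0.034 and 0.075. Without knockout 1 they were −2.04 and −2.19 and passed the threshold (adjusted p = 0.00103 and 0.0256), but all knockout arrays left in that fit are on slide 2 and all wild type arrays on slide 1, so slide and genotype cannot be told apart. The differences at the other 5 Cul3 circRNAs were −0.33 to 0.11, and circRNA 2 (chr1:80276414-80283821), which overlaps one end of circRNA 4, measured 1.39, 1.39 and 1.31 in wild type, against 1.44, 1.38 and 1.60 in the knockout.

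**Figure D4:**
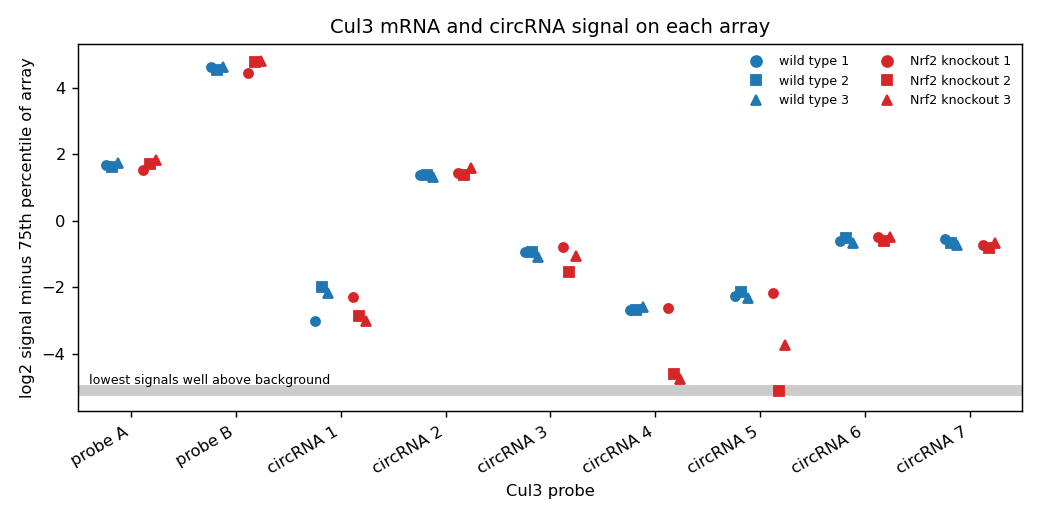
Normalised log2 signal (y axis) of the 2 Cul3 mRNA probes and 7 Cul3 circRNAs (x axis) on each array, wild type in blue and Nrf2 knockout in red. Knockouts 2 and 3 lie at −5.11 to −3.74 at circRNAs 4 and 5, well below the other arrays, while knockout 1 stays with wild type.

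The promoter windows of the genes were read for the core of the ARE, spelled TGACNNNGC and TGAGNNNGC and searched on both strands. The windows, from RefSeq on GRCm38.p6, run from 250 bases before to 50 bases after each annotated start. All 10 genes had at least 1 window, and 6 of them (Nfe2l2, Nfe2l1, Bach2, Maff, Mafg and Mafk) held a match, beside 30.8% of 27025 genes. By window the counts were 9 of 16 for these genes and 27.8% of 32851 overall. Windows of a gene can overlap: the Nfe2l1 windows that begin at 96824078, 96823964 and 96823882 hold the same site, which is counted in each. Annotated starts can also lie inside a gene. The windows with the Bach2 match (chr4:32417185-32417484) and the Mafg match (chr11:120633498-120633797) are within the gene bounds, as are those overlapping Nfe2l1 windows. A match is a description of the letters and not a bound site. For Nfe2l2 and Maff, the genes with the largest differences at mRNA probes, 30 bases around the TGACNNNGC match are printed with the match in capitals, from the windows chr2:75704614-75704913 (minus strand) and chr15:79346371-79346670 (plus strand).
Nfe2l2 promoter: tcagcccaccTGACTCCGCcatgccccgga
Maff promoter: gggcgtctcaTGACTCTGCcactggaaaga
Maff has a further match, to TGAGNNNGC, 87 bases before the same start. Mafg and Mafk also hold a TGACNNNGC match, and whether a match goes with a change was not tested.

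Other genes of the pathway were taken from lists, also chosen with earlier results of these data known. Each gene was read at 1 probe, the tested probe with the highest mean. Across all 17446 genes so tested, 3 (0.0172%) passed and the median change was −0.0047. Of 45 listed genes for NRF2 turnover and cofactors, among them the autophagy receptor Sqstm1, which binds KEAP1, the ligase parts Rbx1 and Btrc, the kinase Gsk3b and the coactivator Crebbp, 43 were tested and limma called 0. An unadjusted p under 0.05 was reached by 1 lower gene and 0 higher, against 12.3% of all genes. The median change was 0.014, with 24 genes above 0 and 19 below. It was −0.076 with slide as a block, which rests on knockout 1 as the only knockout. Among those of lowest p were Nfe2, the erythroid founder of the CNC family (−0.71, SE 0.30, limma adjusted p = 0.333), and Parp1, a DNA repair enzyme (−0.20, SE 0.090, adjusted p = 0.343).

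Of 31 subunits of the constitutive proteasome, a group under NFE2L1 control, limma called 0 of the 31 tested and 0 had an unadjusted p under 0.05. Their median change was 0.016, with 18 above 0 and 13 below. Psmd8 had the lowest p, with a change of 0.27 (SE 0.13, limma adjusted p = 0.367), followed by Psmd11 at 0.18 and Psmd13 at 0.16. Of 47 listed NRF2 target genes 44 were tested, and 1 passed, lower: the aldehyde oxidase Aox1 at −2.06 (SE 0.11, limma adjusted p = 0.0087). An unadjusted p under 0.05 was reached by 11 targets that were lower and 0 that were higher, while over all 17446 genes 1637 were lower and 509 higher at that threshold. The median over the targets was −0.082, with 12 above 0 and 32 below, beside 8508 above and 8938 below over all genes. The summed linear signal of the targets was 728, 1239 and 1223 in wild types 1 to 3 and 1013 to 1059 in the knockout. Outlier-flagged spots drop out of such a sum. Wild type 1 had 186 of them over the whole array, against 13 to 36 on the other arrays. Whether a dropped spot made the wild type 1 sum the lowest was not tested. Next by p were the glutathione S-transferases Gstm3 (−1.58, adjusted p = 0.0841) and Gstm1 (−1.61, adjusted p = 0.109). With slide as a block, which rests on knockout 1 as the only knockout, the call at Aox1 was lost. The count of targets was 0 when either wild type 2 or 3, or either knockout 2 or 3, was left out, and 2 without wild type 1. Without knockout 1 it was 6, and 1 for the turnover list, but slide and genotype cannot be told apart there.

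The coding genes closest to Nfe2l2 probe A in pattern were ranked by the root mean square distance between mean-centred log2 profiles over the 6 arrays. They were the chemokine gene Ccl8 (distance 0.70), the desmosomal cadherin gene Dsg1c (0.80), the vasopressin receptor gene Avpr2 (0.84), the chemokine gene Ccl7 (0.85) and Cyct, a cytochrome c of testis (0.86). The ranking picks genes that fall as probe A does, so their lower level in the knockout was fixed by the choice. None of the 5 passed the threshold, with limma adjusted p of 0.127 for Ccl8 and 0.305 to 0.307 for the others. Dsg1c, Avpr2, Ccl7 and Cyct entered the test only through wild type. Ccl8 measured 0.23, 1.08 and −0.09 in wild type, against −3.80, −5.46 and −3.96 in the knockout. Its signal was well above background on 2 of 3 knockout arrays, and the remaining 4 genes were not on any, so the distances rest in part on knockout values at or below background and their order is only a description.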

How the data were processed

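RNA of 3 wild type and 3 Nrf2 knockout samples was measured on 1-colour Agilent arrays. Per the file headers, the deposited intensity values come from Agilent Feature Extraction 12.0.3.1 on a design of build mm9, and the processed signal was background-subtracted and detrended. Version 10.7 and limma stand in the submitters' processing notes. The authors' value table is on a log2 scale and served as an alternative. The scanner software's flags are other deposited values. From the processed signals, log2 minus the 75th percentile of each array was computed. Control spots (4974) were left out and outlier-flagged spots were missing. Testing required a signal well above background on all arrays of at least 1 group (105930 of 150305). No probe was saturated (0). limma 3.58.1 in R 4.3.3 compared knockout with wild type without covariates, two-sided, with Benjamini-Hochberg adjustment across the tested probes; calls have an adjusted p under 0.05. The procedure was run on simulated data with independent noise. The simulation had no slide effect and no surrogates, so it says nothing about calls that depend on those. Bounds ("at least") use the lowest values well above background, which some probes not well above background exceed. The 6 arrays limit the precision, and levels in lists use 1 probe per gene. CircRNA positions have no build in the sources used here and were read as GRCm38, where 97.4% of 37852 lay inside a coding gene, against 35.9% after a shift of 1 Mb. The reference tables give gene bounds but no exons. The named genes were the 10 members, from each list the genes that passed and the 3 of lowest p, and the 5 nearest profiles; 1 gene under this rule is not reported here. Sums are given for 4 of the 10 marker lists, and outlier-flagged spots, being missing, drop out of every sum. Alternatives covered normalization, background, filter, the authors' table, slide as inferred from the scan date, replicate number, leaving out arrays and the probe per gene. Members and lists were chosen with earlier results of these data known.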

Additional observations from a re-analysis of the deposited data

How the results depend on the processing

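The 3 calls in Nfe2l2 kept their direction in every alternative that tested them. The count of member probes was 1 with the replicate number as a block and 1 where probes had to be well above background on all 6 arrays, which leaves out probes B and C, and 2 to 3 when an array was left out. Whether the replicate numbers pair the arrays is not stated. Deviations of same-numbered arrays correlated at −0.013, −0.05 and 0.038, which shows no pairing in these values but cannot exclude it. The replicate block raised the adjusted p to 0.052, 0.134 and 0.00489 for probes A, B and C and 0.052 for the circRNA. Over all probes the count was 17 with normexp, 4 with the stricter filter, 4 on slide 1 alone, 2 with the replicate block and 5 to 13562 with an array left out. NRF2 targets gave 4 with normexp, 0 with slide as a block, 0 on slide 1 alone, 0 with the replicate block and 0 to 6 with an array left out, and the turnover list 0 to 1. With normexp, whose offset of 50 is added to every signal, the change at Nfe2l2 probe A was −2.42. Slide as a block and slide 1 alone both leave knockout 1 as the only knockout behind the change. Among differences that did not pass, some changed sign. With slide as a block, and with the same value on slide 1 alone, Nfe2l3 probe A was −0.015 and probe B 0.039, Keap1 probe A −0.078, Cul3 probes A and B −0.16 each, Mafk probe A −0.15, Bach2 circRNA 3 0.12, and Cul3 circRNAs 1, 3, 4 and 5 0.10, 0.20, 0.034 and 0.075. Bach2 circRNA 3 was also 0.044 under quantile normalization and in the authors' table and 0.054 with normexp, which gave −0.049 for Cul3 probe A. With an array left out, the ranges of values that turned sign were −0.021 to 0.023 for Nfe2l1 probe A, −0.026 to 0.074 for Nfe2l3 probe A, −0.069 to 0.086 for Cul3 probe A, −0.036 to 0.15 for Bach2 probe B, −0.096 to 0.087 for Mafk probe A, −0.16 to 0.012 for Bach1 circRNA 2, −0.075 to 0.12 for Bach2 circRNA 3 and −0.31 to 0.060 for Cul3 circRNA 3. Without knockout 1, the count of 13562 sets slide 2 against slide 1. With 6 arrays and signals near background, small changes in dim probes are not resolved.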
